A study of Homo sapiens with 9 samples.

Results

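The genes described are those whose expression moved to the same side of untreated PANC1 cells when NUSAP1 was raised and when it was lowered. PANC1 is a cell line from a human pancreatic ductal adenocarcinoma, and NUSAP1 encodes a protein that bundles microtubules of the mitotic spindle. A gene was counted when its CPM (the count scaled to the library's total) in all 6 perturbed libraries lay above, or all below, those in all 3 control libraries. This held for 2515 of 12545 genes that passed a floor on the FPKM (fragments per kilobase of transcript, scaled to library size), set at 1 in 3 or more of 9 libraries. Perturbed libraries were above control for 1240 genes, which is 9.88% of those tested, and below control for 1275 genes, which is 10.2%. The floor was met through the higher side alone for 120 genes above control, with all controls under 1 FPKM, and for 58 below it, with all perturbed libraries under 1 FPKM. Such genes had to differ, and ANKRD1, DUSP8, ISG20, MAFF and H4C8 are among them. The series title links NUSAP1 with LDHA, the lactate dehydrogenase subunit that favours making lactate from pyruvate, and with glycolysis.

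PANC1 cells in 3 states were sequenced, with 3 libraries each. The overexpression libraries came from cells transfected with a plasmid that encodes flag-tagged NUSAP1. The knockdown libraries came from cells transfected with a small interfering RNA (siRNA) against NUSAP1. The control libraries came from wild-type cells with no treatment. The labels name no empty plasmid and no control siRNA, so what both perturbations share against control cannot be told apart from an effect of transfection. They do not say whether replicates were separate cultures, so a p-value here speaks only to the spread among these samples, which may be technical. RNA came from whole cultures, so fewer cells of a kind and less RNA per cell cannot be told apart.

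Total counts ran from 57115172 to 73386227 per library. NUSAP1 itself, the targeted gene, had 13325, 13792 and 12909.9 FPKM after overexpression and 12.004, 13.8 and 11.6 FPKM after knockdown, against 30.9, 33.98 and 42.1 FPKM in control. It followed the labels in every library and was on opposite sides of control, and so is not among the 2515 genes. Its transcripts took between 5.63% and 5.998% of the counts of an overexpression library. Overexpression 1 and 3 and control 2 and 3 stood apart through transcripts of hepatocytes, such as albumin. The 15 genes of that list summed to 21.9, 0.683 and 25.6 FPKM after overexpression and 0.359, 0.148 and 0.205 FPKM after knockdown, against 0.485, 26.96 and 32.3 FPKM in control. Keratins of ductal cells, KRT8, KRT18 and KRT19, were measured in the tested set, whereas only 3 of 14 markers of leukocytes, endothelium, fibroblasts, acini and islets were (CD68, COL1A1 and COL3A1). KRT7, the other keratin fixed as a ductal marker, is not reported here. Without those 4 libraries, control and overexpression keep 1 library each, and the fit has 2 residual degrees of freedom. A call lost in that fit can thus come with a change of the same size. The part of the hepatocyte transcripts in the results was not tested.

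Both perturbations deliver nucleic acid by transfection, which can itself engage innate immune sensors and stress kinases in human cells. Growth-factor and stress signals are known to switch on immediate early genes within a short time, and mechanical and cytoskeletal cues act on gene expression through YAP and TAZ, partners of the TEAD transcription factors. In cancer cells, a high rate of lactate production in the presence of oxygen is called the Warburg effect, and HIF1A and MYC are transcription factors known to raise genes of glycolysis.

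In the average of the 2 perturbations against control, 2513 genes were higher (20.0% of those tested) and 2407 lower (19.2%), 4920 in all (39.2%), at a Benjamini-Hochberg adjusted p below 0.05 in edgeR. That test uses the same libraries as the side of control does, and so is no separate support for it. Of the genes called higher, 1178 (46.9%) had groups that did not overlap, and of those called lower 1163 (48.3%). An average over both perturbations can pass on the strength of 1 of them. Among genes called higher, 360 had a knockdown mean below control and 20 an overexpression mean below control. Among genes called lower, 321 had a knockdown mean above control and 49 an overexpression mean above control. For some genes described below, the knockdown change against control was not itself called. Examples by edgeR adjusted p were ISG15 (0.0767), DEPTOR (0.0931), TFE3 (0.103), ANGPTL4 (0.156), DIRAS1 (0.167) and CLDN7 (0.255). When the 6 perturbed libraries were modelled as 1 group, so that the gap between overexpression and knockdown entered the spread, 392 genes were called (3.12%). Of these, 170 were higher (1.36%) and 222 lower (1.77%), and all 392 had groups that did not overlap. Of the genes described below, LDHA, STK40, DUSP16, TMC7, NPIPB5, NBPF12, NPIPB3, NBPF26, INO80, TUBA4A, ITGA5, SESN2, ODC1, AJUBA, PSMD14 and PSMC2 were called there. So were CD24, BCL2L11, REEP6, CREG1, SMIM14, IGFBPL1, THY1, RNF5, CYB561, IFITM2, P4HA2, SDHA, MT-CO2, MT-CO3, RRM2, MMP2, MVD, AKR1B1 and COL1A1. The other named genes that pass in the pooled test lost their call in that model.

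The shared shifts were mostly modest. Over the genes above control, the median log2 fold change was 0.78 after overexpression and 0.38 after knockdown. Over the genes below control, it was -0.74 after overexpression and -0.45 after knockdown. Over all tested genes, the medians were -0.0037 and 0.016. A change of at least 2-fold in both perturbations was seen for 76 of the genes above control and 57 of those below it, while 151 (1.20%) and 80 (0.638%) of all tested genes had such a change irrespective of overlap. At 1.5-fold the numbers were 270 and 310.

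**Figure D1:**
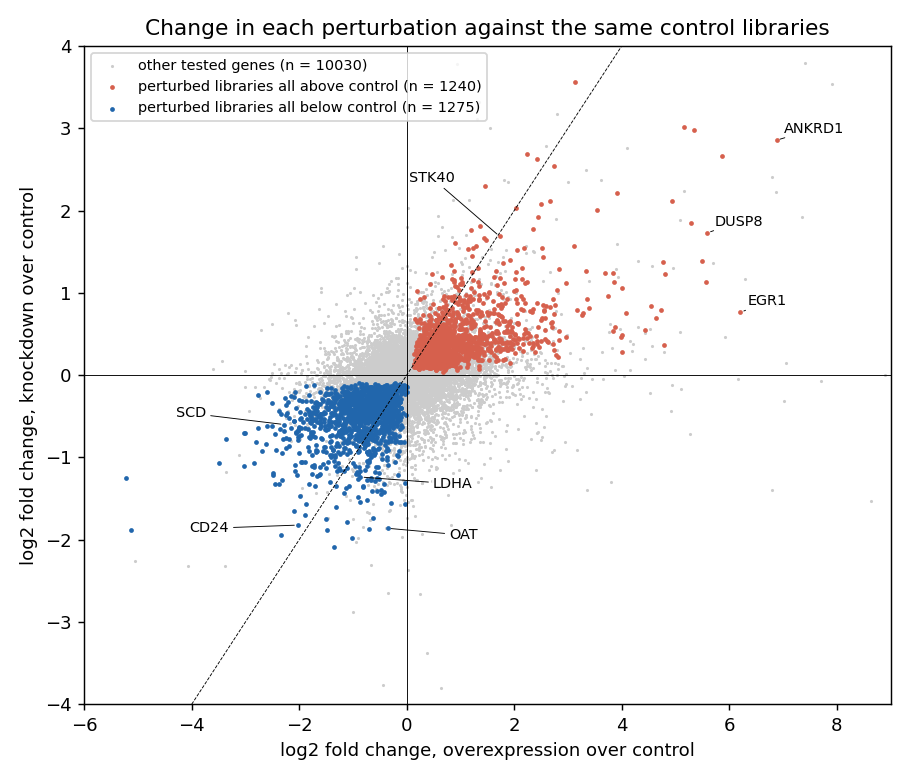
Log2 fold change of each tested gene after overexpression (horizontal axis) and after knockdown (vertical axis), both against the same 3 control libraries, so the axes are not independent. Red and blue points are the 1240 and 1275 genes whose perturbed libraries all lie above or all below control, the dashed line marks equal change, and 39 genes, of which 6 are coloured, lie beyond the axes.

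Which perturbation moved a gene further was read from overexpression against knockdown, a contrast that leaves the controls out. Over all tested genes, 6270 (50.0%) differed, 3193 (25.5%) with overexpression higher and 3077 (24.5%) with overexpression lower. Among the 1240 genes above control, overexpression was higher than knockdown in 693, lower in 25 and not called different in 522. For 42 of the 1240 the FPKM floor was met through overexpression alone, so overexpression had to lie above knockdown there. Among the 1275 below control, overexpression was lower than knockdown in 541, higher in 93 and not called different in 641. The size of the change was larger after overexpression in 1056 of the first set and 937 of the second. Changes also spread wider after overexpression over all tested genes, so this is not particular to the 2 sets. There the 10th and 90th percentiles of the log2 fold change were -0.90 and 1.08 after overexpression and -0.49 and 0.44 after knockdown. The 95% interval of the overexpression over knockdown ratio lay within 1.5-fold either way for 520 genes above control and 507 below it. Each interval places the difference of its own gene under 1.5-fold. The intervals were not adjusted over genes and rest on approximate standard errors, so they set no bound for these genes as a set.

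The genes raised furthest in both perturbations included several that were raised almost alike. STK40, which encodes a kinase-like protein, had 19.8, 23.2 and 26.4 FPKM after overexpression and 24.6, 24.4 and 22.9 FPKM after knockdown, against 4.01, 9.23 and 8.97 FPKM in control. Every perturbed library was at least 2-fold above the highest control, and control 1 was the lowest of all. The pooled log2 fold change was 1.71 ± 0.25 (SE, adjusted p = 0.000968), with 1.73 after overexpression and 1.69 after knockdown. Overexpression and knockdown differed by 0.043 ± 0.26 on the log2 scale, with a 95% interval of -0.56 to 0.64. INO80, the ATPase of a chromatin remodelling complex, had 13.8, 15.3 and 13.8 FPKM after overexpression and 13.2, 13.98 and 13.1 FPKM after knockdown, against 6.003, 6.83 and 5.298 FPKM in control. The perturbed libraries sat close together and well apart from control, with a pooled log2 fold change of 1.23 ± 0.090 (adjusted p = 3.79e-05). TUBA4A, an alpha-tubulin, had 8.69, 6.39 and 6.92 FPKM after overexpression and 6.79, 6.18 and 6.72 FPKM after knockdown, against 2.097, 3.58 and 3.55 FPKM in control. Its pooled log2 fold change was 1.21 ± 0.18 (adjusted p = 0.00122), and its locus overlaps STK16 and TUBA4B. It was the only 1 of 11 tested tubulin genes called higher, while TUBB2A and TUBB were called lower, the call for TUBB2A being lost without control 3 (adjusted p = 0.0556). These counts do not exceed the shares over all tested genes, of which 20.0% were called higher and 19.2% lower.

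Members of 2 primate gene families with near-identical copies, 4 genes in all, were also higher in both perturbations. NPIPB5 had 17.6, 22.3 and 16.2 FPKM after overexpression and 22.6, 27.2 and 20.1 FPKM after knockdown, against 3.66, 11.03 and 7.24 FPKM in control, and NPIPB3 had 7.81, 9.295 and 7.28 FPKM after overexpression and 10.2, 13.05 and 9.09 FPKM after knockdown, against 4.18, 4.12 and 2.65 FPKM in control. NBPF12 had 5.48, 7.18 and 6.32 FPKM after overexpression and 8.72, 11.3 and 7.501 FPKM after knockdown, against 2.83, 2.99 and 1.93 FPKM in control, and NBPF26 had 3.91, 4.95 and 5.26 FPKM after overexpression and 5.65, 7.11 and 5.15 FPKM after knockdown, against 1.62, 2.82 and 2.04 FPKM in control. In all 4 the perturbed and control libraries were apart, and the knockdown means were the highest. Their pooled log2 fold changes ran from 1.33 to 1.59 with adjusted p between 0.000295 and 0.00425. Reads may be shared among copies, so the values cannot be assigned to single genes. Without the 4 libraries with hepatocyte transcripts the adjusted p was 0.0627 for NBPF12 and 0.0675 for NPIPB3, and 0.0388 and 0.0465 for NPIPB5 and NBPF26.

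Further genes rose in both perturbations but more after overexpression. DUSP16, a phosphatase that inactivates the stress kinases JNK and p38, had 6.82, 7.81 and 6.71 FPKM after overexpression and 3.69, 4.06 and 3.89 FPKM after knockdown, against 1.14, 1.59 and 1.22 FPKM in control. Knockdown lay between overexpression and control with no overlap on either side. DUSP8, a phosphatase of the same class, was higher in overexpression with 14.1, 11.8 and 11.9 FPKM, while knockdown had 0.906, 1.04 and 0.827 FPKM and the controls 0.315, 0.218 and 0.286 FPKM. The log2 fold changes of DUSP16 were 2.52 after overexpression and 1.55 after knockdown, and those of DUSP8 5.59 and 1.73. The KRTAP5-AS1 locus overlaps DUSP8. TMC7, a transmembrane channel-like protein, had 7.98, 8.54 and 8.198 FPKM after overexpression and 5.79, 6.68 and 5.76 FPKM after knockdown, against 2.19, 2.13 and 1.94 FPKM in control, and its pooled log2 fold change was 1.79 ± 0.082 (adjusted p = 5.71e-06). KLHL21, an adaptor of a CUL3 ubiquitin ligase used in mitosis, had 12.4, 11.2 and 12.3 FPKM after overexpression and 7.402, 6.83 and 7.05 FPKM after knockdown, against 3.63, 4.46 and 1.299 FPKM in control. Control 3 was lowest there, and the difference between overexpression and knockdown, 0.85 ± 0.36 on the log2 scale, did not pass (adjusted p = 0.0785). The change of KLHL21 after knockdown against control was not called either (edgeR adjusted p = 0.0644).

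**Figure D2:**
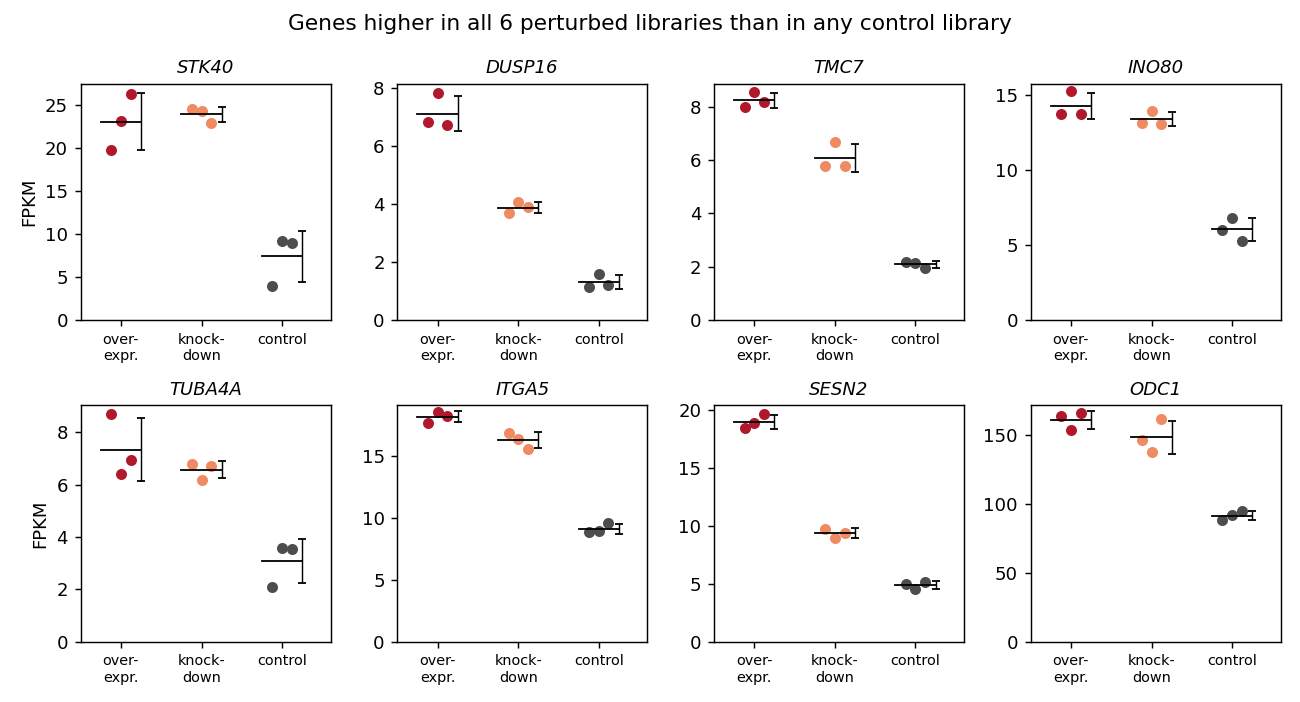
FPKM of 8 genes in each library, with overexpression, knockdown and control from left to right, where points are libraries, horizontal lines are means and bars are SD (n = 3). In every panel all 6 perturbed libraries lie above the 3 controls, and STK40 and INO80 are near the same level in both perturbations whereas DUSP16 and SESN2 are higher after overexpression.

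Targets of YAP and TEAD were in good part above control. Of 14 tested, 8 had all perturbed libraries above control and none had all below, and 10 were called higher and 1 lower in the pooled test. For this and the later lists, the shares over all tested genes were 9.88% above, 10.2% below, 20.0% called higher and 19.2% called lower. The median log2 fold change of the 14 genes was 1.097 after overexpression and 0.31 after knockdown. ANKRD1, an ankyrin-repeat protein and a widely used YAP target, had 37.5, 38.8 and 38.4 FPKM after overexpression and 1.996, 3.03 and 2.48 FPKM after knockdown, against 0.0726, 0.632 and 0.334 FPKM in control. Its log2 fold changes were 6.88 after overexpression and 2.85 after knockdown, and the pooled one was 4.87 ± 0.52 (adjusted p = 0.000211). The control level was close to the limit of detection, so the size of the fold is loosely set. CCN2, a secreted matricellular protein, had 48.2, 43.6 and 44.8 FPKM after overexpression and 17.9, 18.6 and 19.5 FPKM after knockdown, against 11.8, 12.5 and 12.6 FPKM in control, and AJUBA, a LIM-domain adaptor, had 16.3, 16.7 and 16.4 FPKM after overexpression and 11.4, 10.9 and 11.2 FPKM after knockdown, against 5.96, 6.902 and 7.34 FPKM in control. NT5E, the cell-surface enzyme that makes adenosine, had 37.9, 39.5 and 40.4 FPKM after overexpression and 19.5, 22.8 and 19.2 FPKM after knockdown, against 14.5, 15.2 and 14.1 FPKM in control. All 3 were highest after overexpression and intermediate after knockdown, with pooled log2 fold changes of 1.28 ± 0.071, 1.04 ± 0.073 and 0.99 ± 0.065 (adjusted p = 1.22e-05, 3.32e-05 and 2.47e-05). CCN1, CRIM1, DLC1 and AXL were the other 4, with log2 fold changes after knockdown from 0.30 to 0.63. TEAD1 itself had a pooled log2 fold change of -0.011 and was not called. Without the 4 libraries with hepatocyte transcripts, 3 of the 14 genes were called higher, the adjusted p of NT5E was 0.0532, and the pooled median was 0.5996 against 0.58 with all libraries.

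The promoters of ANKRD1 and CCN2 are shown because TEAD proteins are known to bind GGAATG and act on both genes. The 250 bases before the start are from RefSeq on GRCh38.p14, on the gene's strand from 5′ to 3′, and capitals mark GGAATG, which was searched on both strands (CATTCC on the other). ANKRD1 is at chr10:90921088-90921337 on the minus strand and CCN2 at chr6:131951373-131951622 on the minus strand.
ANKRD1: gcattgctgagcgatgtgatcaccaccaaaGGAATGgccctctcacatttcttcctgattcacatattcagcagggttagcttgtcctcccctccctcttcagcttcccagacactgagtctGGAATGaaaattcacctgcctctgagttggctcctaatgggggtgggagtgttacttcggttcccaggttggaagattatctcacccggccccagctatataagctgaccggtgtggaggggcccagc
CCN2: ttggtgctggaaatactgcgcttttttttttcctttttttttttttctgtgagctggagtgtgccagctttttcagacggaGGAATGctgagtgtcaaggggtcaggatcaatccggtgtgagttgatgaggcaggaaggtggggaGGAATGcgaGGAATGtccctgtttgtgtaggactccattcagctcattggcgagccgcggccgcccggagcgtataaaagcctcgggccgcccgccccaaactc
ANKRD1 held the letters 220 and 128 bases before its start, and CCN2 169, 104 and 95 bases before its start. Of 35116 promoters of this length in the table, 11.89% held them at least once. A match of letters is a description and not evidence of binding.

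Immediate early genes were higher far more after overexpression than after knockdown. Of 18 tested, 7 lay above control in all perturbed libraries and none below, and 13 were called higher and 5 were not called. The median log2 fold change of the list was 2.65 after overexpression and 0.27 after knockdown. EGR1, a zinc-finger transcription factor, had 101, 100.1 and 88.8 FPKM after overexpression and 2.42, 2.38 and 2.2999 FPKM after knockdown, against 1.25, 1.41 and 1.48 FPKM in control. Overexpression was far above the other groups, and the knockdown libraries, though lower, were all above every control. JUN, a subunit of AP-1, had 267, 256 and 265 FPKM after overexpression and 23.7, 23.6 and 25.8 FPKM after knockdown, against 16.7, 17.4 and 18.4 FPKM in control, and FOSL1, its partner, had 168, 153 and 146 FPKM after overexpression and 31.6, 32.3 and 29.2 FPKM after knockdown, against 22.8, 25.4 and 26.3 FPKM in control. For EGR1, JUN and FOSL1 the log2 fold change after knockdown was 0.76, 0.46 and 0.31. Overexpression exceeded knockdown in JUN by 3.52 ± 0.084 on the log2 scale (adjusted p = 1.22e-07) and in EGR1 by 5.45 ± 0.099 (adjusted p = 2.60e-08). KLF4, DUSP5, FOS and JUNB were the other 4, with log2 fold changes of 0.73, 0.49, 0.28 and 0.27 after knockdown. MAFF, a small MAF transcription factor, and NR1D1, a nuclear receptor of the circadian clock, were among the 5 such genes on 1 side of control, with overexpression above knockdown, that had the lowest p for that difference. Overexpression exceeded knockdown by 4.41 ± 0.11 in MAFF and by 3.33 ± 0.086 in NR1D1, and NR1D1 overlaps THRA. MAFF met the FPKM floor through overexpression alone, with every knockdown and control library under 1 FPKM. Its overexpression thus had to lie above knockdown.

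The list for the unfolded protein response and the integrated stress response held 18 tested genes, of which 6 lay above control in all perturbed libraries and none below. In the pooled test 10 were called higher and 2 lower. The median log2 fold change was 0.60 after overexpression and 0.25 after knockdown. PPP1R15A, which directs a phosphatase to eIF2-alpha, had 115, 109 and 116 FPKM after overexpression and 17.7, 17.5 and 17.6 FPKM after knockdown, against 8.998, 8.42 and 9.42 FPKM in control. Each of the 3 groups was tight, and knockdown was nearly 2-fold above control, with log2 fold changes of 3.74 after overexpression and 0.96 after knockdown. SESN2, a stress-induced inhibitor of mTORC1, had 18.5, 18.9 and 19.7 FPKM after overexpression and 9.77, 8.98 and 9.44 FPKM after knockdown, against 5.03, 4.56 and 5.16 FPKM in control, and its pooled log2 fold change was 1.47 ± 0.078 (adjusted p = 9.14e-06). DDIT3, the transcription factor CHOP, had 169, 132 and 176 FPKM after overexpression and 34.5, 33.5 and 21.5 FPKM after knockdown, against 18.03, 13.2 and 20.8 FPKM in control. Knockdown 3 was close to the highest control there, and the DDIT3 locus overlaps MARS1 and MBD6. HSPA5, the main chaperone of the endoplasmic reticulum, had 220.2, 218 and 229 FPKM after overexpression and 153, 152 and 162 FPKM after knockdown, against 123, 131 and 133 FPKM in control, a smaller shift of 0.56 ± 0.059 (adjusted p = 0.000187). ATF6, a sensor of the unfolded protein response, had log2 fold changes of 0.55 and 0.45, and DNAJB9, a co-chaperone, 1.22 and 0.44, after overexpression and knockdown. PDIA4 and CALR, both folding factors, were the 2 called lower, with log2 fold changes of -0.58 and -0.68 after overexpression and 0.017 and 0.023 after knockdown. When the 4 libraries with hepatocyte transcripts were left out, 7 immediate early and 3 stress response genes were called higher, and the adjusted p of DDIT3 was 0.0649. Among 11 heat shock genes, only HSPA8, a constitutive cytosolic chaperone, was above control in all perturbed libraries, against 9.88% of all tested genes. HSPA8 had log2 fold changes of 0.44 after overexpression and 0.45 after knockdown. Its pooled log2 fold change without those 4 libraries was 0.27, against 0.44 with all, and was not called (adjusted p = 0.392).

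Of 28 proteasome subunits tested, 6 lay above control and none below, and 9 were called higher and 1 lower. Their median log2 fold change was 0.11 after overexpression and 0.24 after knockdown, and overexpression was called above knockdown for 7 and below it for 5. PSMD14, the deubiquitinase of the lid, had 20.7, 22.03 and 21.8 FPKM after overexpression and 18.9, 18.4 and 19.1 FPKM after knockdown, against 13.9, 14.2 and 13.7 FPKM in control, and PSMC2, an ATPase of the base, had 30.6, 29.4 and 29.2 FPKM after overexpression and 34.1, 35.5 and 37.7 FPKM after knockdown, against 22.6, 23.9 and 23.3 FPKM in control. PSMD14 was higher after overexpression than after knockdown (adjusted p = 0.00643), while for PSMC2 that difference was not called (0.0861), with pooled log2 fold changes of 0.56 ± 0.059 (adjusted p = 0.000182) and 0.52 ± 0.066 (adjusted p = 0.000504). PSMC1, PSMD11, PSMA1 and PSMD1 were the other 4, with pooled log2 fold changes between 0.27 and 0.47. PSMB5, a catalytic subunit, was the subunit called lower (-0.46). Leaving out the 4 libraries with hepatocyte transcripts ended the calls of PSMD14, PSMC2 and PSMD11 (adjusted p = 0.0751, 0.103 and 0.165), with a pooled median of 0.12 against 0.14 with all libraries. DNAJC2 and SLC26A5 overlap PSMC2.

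Among 24 genes of lysosomes and autophagy, 4 lay above control and 2 below, against 9.88% and 10.2% of all tested genes. SQSTM1, an autophagy receptor, had 262, 222 and 259 FPKM after overexpression and 96.3, 90.6 and 100.04 FPKM after knockdown, against 70.3, 69.7 and 77.2 FPKM in control, and TFE3, a transcription factor of lysosomal genes, had 53.1, 49.6 and 53.5 FPKM after overexpression and 20.7, 18.8 and 19.1 FPKM after knockdown, against 16.7, 17.6 and 16.9 FPKM in control. For TFE3 the adjusted p without the 4 libraries with hepatocyte transcripts was 0.0506. In both the knockdown libraries were above control by less than the overexpression libraries, with log2 fold changes after knockdown of 0.39 and 0.18. CTSL was another gene above control (0.44 pooled), and WIPI1 (-0.75) and CTSZ (-0.42) lay below it. ODC1, the first enzyme of polyamine synthesis, had 164, 154 and 166 FPKM after overexpression and 147, 138 and 162 FPKM after knockdown, against 88.4, 92.01 and 94.6 FPKM in control. Its pooled log2 fold change was 0.79 ± 0.078 (adjusted p = 0.000145) and overexpression and knockdown were not called different (0.21 ± 0.087, adjusted p = 0.0765). The adjusted p for ODC1 without the 4 libraries with hepatocyte transcripts was 0.0748.

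By the smaller of its 2 changes, the largest decrease among genes at a mean FPKM of at least 5 was that of CD24, a lipid-anchored surface glycoprotein of epithelial and stem-like cells (ENSG00000272398, chromosome 6, 106969831 to 106975465). CD24 had 16.5, 16.6 and 18.6 FPKM after overexpression and 20.5, 21.7 and 21.3 FPKM after knockdown, against 72.8, 74.8 and 74.8 FPKM in control. Libraries within each group were close to each other, and the highest perturbed library was far below the lowest control. The pooled log2 fold change was -1.92 ± 0.057 (adjusted p = 1.02e-06), with -2.02 after overexpression and -1.82 after knockdown, and it had the lowest adjusted p among the named genes in the model of the 6 perturbed libraries as 1 group (7.12e-05). CD24 has processed copies elsewhere in the genome that may take or lend reads. THY1, another lipid-anchored surface protein, had 2.27, 2.05 and 2.04 FPKM after overexpression and 2.32, 2.32 and 2.76 FPKM after knockdown, against 5.22, 5.18 and 5.74 FPKM in control, with a pooled log2 fold change of -1.198 ± 0.097 (adjusted p = 6.20e-05). IGFBPL1, a secreted protein related to insulin-like growth factor binding proteins, had 7.92, 6.44 and 7.96 FPKM after overexpression and 7.54, 7.07 and 9.11 FPKM after knockdown, against 17.4, 18.2 and 17.1 FPKM in control. Its log2 fold change was -1.16 after overexpression and -1.16 after knockdown, and their difference had a 95% interval of -0.30 to 0.30.

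Among the other genes with the largest decreases in both perturbations, RNF5, a ubiquitin ligase of the endoplasmic reticulum, had 29.7, 24.9 and 28.9 FPKM after overexpression and 26.6, 20.4 and 27.6 FPKM after knockdown, against 62.8, 56.9 and 72.2 FPKM in control, and REEP6, which shapes that membrane, had 3.14, 1.805 and 2.04 FPKM after overexpression and 3.74, 3.32 and 3.72 FPKM after knockdown, against 9.89, 8.95 and 10.7 FPKM in control. CREG1, a glycoprotein of the endolysosomal system, had 1.66, 1.92 and 1.63 FPKM after overexpression and 2.54, 2.57 and 2.36 FPKM after knockdown, against 5.48, 5.74 and 5.93 FPKM in control, and SMIM14, a small membrane protein, had 2.77, 2.22 and 2.76 FPKM after overexpression and 3.65, 3.63 and 3.74 FPKM after knockdown, against 8.24, 9.08 and 7.77 FPKM in control. CREG1 and SMIM14 were lower after overexpression than after knockdown (adjusted p = 0.00952 and 0.0101), whereas the difference was not called for RNF5 (0.204) or REEP6 (0.0607). The pooled log2 fold changes were -1.25 ± 0.13, -1.73 ± 0.17, -1.43 ± 0.087 and -1.41 ± 0.086, with adjusted p of 0.000161, 0.000137, 1.81e-05 and 1.81e-05. CYB561, an electron carrier of vesicle membranes, had 1.94, 2.04 and 2.38 FPKM after overexpression and 3.69, 2.07 and 3.76 FPKM after knockdown, against 6.46, 6.81 and 7.28 FPKM in control. IFITM2, which restricts virus entry, had 3.03, 2.44 and 2.697 FPKM after overexpression and 2.77, 2.82 and 2.99 FPKM after knockdown, against 6.09, 5.89 and 6.79 FPKM in control, and its neighbour IFITM1 overlaps it and is a near copy. BCL2L11, the pro-apoptotic protein BIM, had 0.844, 2.62 and 1.94 FPKM after overexpression and 0.795, 1.699 and 1.86 FPKM after knockdown, against 6.13, 4.38 and 5.56 FPKM in control, with wide spread inside both perturbed groups and a pooled log2 fold change of -1.69 ± 0.36 (adjusted p = 0.00612). DIRAS1, a small GTPase of the Ras family, had 3.52, 0.649 and 4.45 FPKM after overexpression and 3.76, 3.86 and 4.75 FPKM after knockdown, against 8.87, 9.99 and 10.02 FPKM in control, with overexpression 2 far lower than the rest. Its pooled call (-1.45, adjusted p = 0.0298) was lost without control 1, 2 or 3 (0.0663, 0.0725 and 0.0791) and without knockdown 1 or 2 (0.0620 and 0.0588). Once the 4 libraries with hepatocyte transcripts were left out, RNF5, IGFBPL1, THY1, IFITM2, CYB561 and BCL2L11 lost their calls and CD24 did not. The pooled log2 fold changes were then -1.36 for RNF5, -1.31 for IGFBPL1, -1.24 for THY1 and -1.22 for IFITM2. For CYB561, BCL2L11 and CD24 they were -1.36, -1.67 and -1.98.

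**Figure D3:**
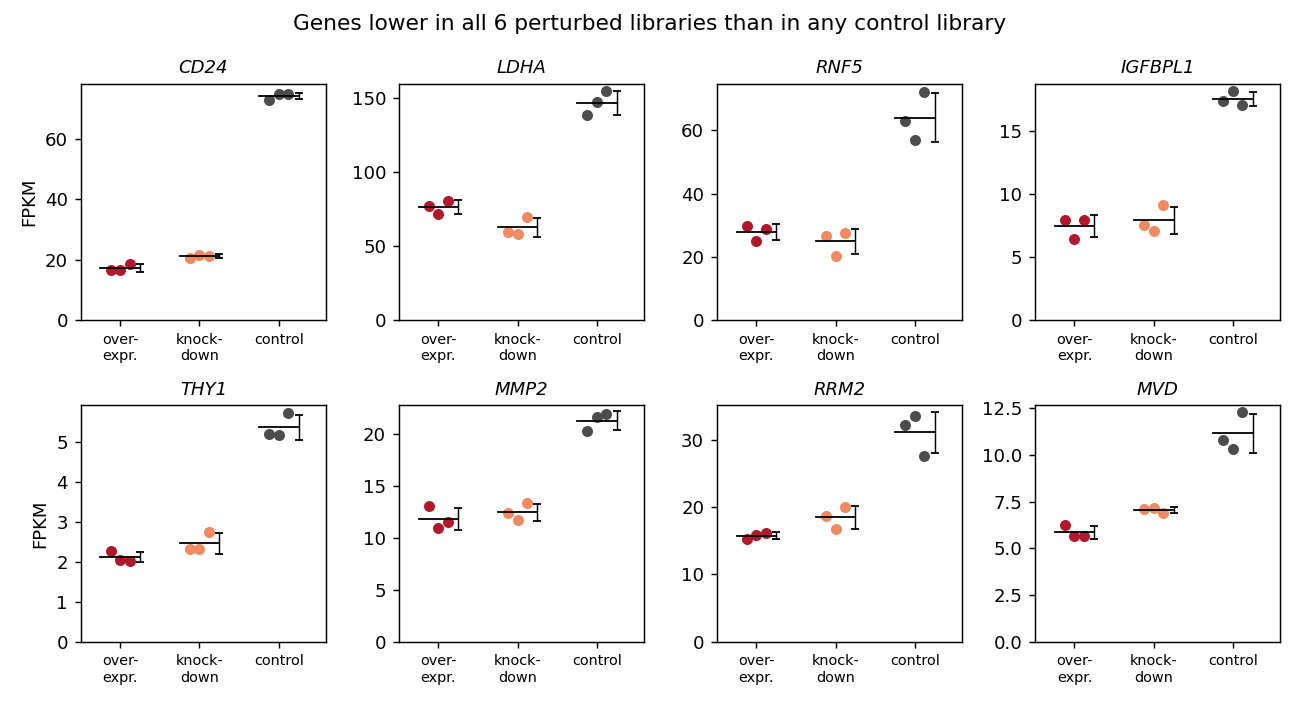
FPKM of 8 genes in each library, with overexpression, knockdown and control from left to right, where points are libraries, horizontal lines are means and bars are SD (n = 3). In every panel all 6 perturbed libraries lie below the 3 controls, and LDHA is lower after knockdown than after overexpression and CD24 the reverse, while that difference was not called for RNF5, RRM2 or MVD.

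LDHA, the gene named in the series title, was lower in both directions of NUSAP1 change (ENSG00000134333, chromosome 11, 18394560 to 18408425). It had 77.2, 71.7 and 80.9 FPKM after overexpression and 59.8, 58.5 and 69.9 FPKM after knockdown, against 139, 148 and 155 FPKM in control. The highest perturbed library was well under the lowest control, and knockdown was lower than overexpression. The group means were 76.6 ± 4.61 FPKM after overexpression, 62.7 ± 6.21 FPKM after knockdown and 147 ± 8.04 FPKM in control (SD, n = 3 each). Pooled over both perturbations, the log2 fold change was -1.05 ± 0.083 (adjusted p = 5.52e-05), a 2.07-fold decrease. Overexpression exceeded knockdown by 0.38 ± 0.099 on the log2 scale (adjusted p = 0.0123). In an exact two-sided permutation test of log2(FPKM + 1), 6 against 3 libraries, p was 0.0238, the smallest that 84 regroupings allow and the one that groups without overlap must give, and 0.0714 after adjustment over LDHA, HIF1A and MYC. LDHA stayed below 0.05 in edgeR without any single library, and without the 4 libraries with hepatocyte transcripts its adjusted p was 0.0516. LDHA has processed pseudogenes that can share its reads.

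HIF1A and MYC did not show a shared shift. HIF1A had 18.2, 25.2 and 22.3 FPKM after overexpression and 14.6, 15.8 and 10.7 FPKM after knockdown, against 19.6, 21.2 and 18.9 FPKM in control, with overexpression on either side of control and all knockdown libraries below it. Its pooled log2 fold change was -0.17 ± 0.13 (adjusted p = 0.324, exact permutation p = 0.452), and overexpression exceeded knockdown by 0.78 ± 0.15 (adjusted p = 0.00258). MYC had 35.9996, 30.3 and 4.41 FPKM after overexpression and 12.5, 10.4 and 1.06 FPKM after knockdown, against 13.1, 12.3 and 12.7 FPKM in control. Library 3 of each perturbed group was far below its companions, and the pooled log2 fold change was 0.13 ± 0.75 (adjusted p = 0.909, exact permutation p = 0.762).

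Glycolysis and lactate genes were lower in part. Of 23 tested, 6 lay below control in all perturbed libraries (ALDOC, LDHA, LDHB, PFKL, PFKM and SLC16A3) and none above, and 11 were called lower and 1 higher in the pooled test. The median log2 fold change was -0.52 after overexpression and -0.23 after knockdown. ALDOC, an aldolase, had 1.12, 1.16 and 0.997 FPKM after overexpression and 4.901, 5.07 and 5.48 FPKM after knockdown, against 7.49, 7.89 and 8.56 FPKM in control, and PFKL, the liver form of phosphofructokinase, had 7.04, 6.09 and 7.32 FPKM after overexpression and 14.4, 13.1 and 13.1 FPKM after knockdown, against 16.4, 15.95 and 18.5 FPKM in control. Both were lowest after overexpression, with log2 fold changes of -2.77 and -1.23 there and -0.64 and -0.34 after knockdown. LDHB, the other common lactate dehydrogenase subunit, had 142, 137 and 187 FPKM after overexpression and 94.2, 97.6 and 104 FPKM after knockdown, against 235, 227 and 243 FPKM in control, and like LDHA it was lower after knockdown (-1.27) than after overexpression (-0.52). SLC16A3, a lactate exporter, had 25.9, 18.5 and 22.5 FPKM after overexpression and 35.9, 34.8 and 34.1 FPKM after knockdown, against 41.5, 45.9 and 51.3 FPKM in control, with a pooled log2 fold change of -0.70 ± 0.10 (adjusted p = 0.00101). GAPDH, PGK1, GPI and PGAM1 were called lower on the average, yet their log2 fold changes after knockdown were 0.016, -0.032, 0.015 and 0.019, close to no change. PFKFB4, a regulator of phosphofructokinase, was the other called lower (-1.63 after overexpression and -0.049 after knockdown), and ENO3, an enolase, was called higher (1.21 and -0.39). SLC2A1, the glucose transporter GLUT1, and HK2, a hexokinase, were not called (-0.17 and -0.15 pooled). Of the 23 genes, 4 were called lower without the 4 libraries with hepatocyte transcripts, and the pooled median was -0.34 against -0.39.

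The promoters of LDHA and ALDOC are shown because HIF1A is known to bind ACGTG, the core of hypoxia response elements, and LDHA is a classic target. Capitals mark ACGTG, searched on both strands (CACGT on the other), in the 250 bases before the start, from RefSeq on GRCh38.p14 on the gene's strand from 5′ to 3′. LDHA is at chr11:18394313-18394562 on the plus strand, for the first of its 2 starts in the table, and ALDOC at chr17:28576896-28577145 on the minus strand.
LDHA: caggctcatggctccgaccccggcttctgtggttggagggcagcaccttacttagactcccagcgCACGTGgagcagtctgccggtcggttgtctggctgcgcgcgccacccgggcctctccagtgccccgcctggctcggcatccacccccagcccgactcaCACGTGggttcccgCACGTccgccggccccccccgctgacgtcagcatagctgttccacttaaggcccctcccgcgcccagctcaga
ALDOC: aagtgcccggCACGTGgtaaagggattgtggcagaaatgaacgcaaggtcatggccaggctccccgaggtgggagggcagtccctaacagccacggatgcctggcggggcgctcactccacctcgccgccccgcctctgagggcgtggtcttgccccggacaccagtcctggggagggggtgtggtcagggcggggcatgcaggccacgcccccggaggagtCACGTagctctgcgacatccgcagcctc
Where the letters on both strands overlap, CACGTG is counted for each strand. LDHA thus held 5 matches in 3 places and ALDOC 3 matches in 2 places. Of 35116 promoters, 18.51% held the letters at least once. Here too a match of letters is a description and not evidence of binding, by HIF1A or by any other factor.

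Hypoxia targets outside glycolysis split. Of 15 tested, 5 lay below control (P4HA1, P4HA2, PDK1, DDIT4 and BNIP3) and 2 above (ADM and ANGPTL4), with 5 called lower and 4 higher. DDIT4, an inhibitor of mTORC1, had 16.4, 14.7 and 15.1 FPKM after overexpression and 51.4, 50.7 and 58.8 FPKM after knockdown, against 74.6, 81.4 and 94.9 FPKM in control, and P4HA2, a collagen prolyl hydroxylase, had 1.28, 1.25 and 1.38 FPKM after overexpression and 0.961, 0.723 and 0.915 FPKM after knockdown, against 2.22, 2.705 and 2.596 FPKM in control. DDIT4 was lowest after overexpression and P4HA2 after knockdown, with overexpression minus knockdown of -1.71 ± 0.12 and 0.68 ± 0.14 on the log2 scale (adjusted p = 1.21e-05 and 0.00357). PDK1, the kinase that holds back pyruvate dehydrogenase, had log2 fold changes of -0.55 after overexpression and -1.405 after knockdown. With the 4 libraries with hepatocyte transcripts left out, the adjusted p was 0.0748 for P4HA2 and 0.0627 for ANGPTL4. ANGPTL4, a secreted inhibitor of lipoprotein lipase, had 40.999, 35.3 and 35.3 FPKM after overexpression and 10.98, 10.5 and 13.6 FPKM after knockdown, against 8.11, 10.1 and 9.52 FPKM in control, and ADM, the peptide adrenomedullin, had log2 fold changes of 0.87 and 0.58. P4HA2 overlaps PDLIM4 and SLC22A4.

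Transcripts of the mitochondrial genome took a smaller share of the libraries after both perturbations. The 13 protein-coding mitochondrial genes held 7.27%, 6.59% and 6.02% of counts after overexpression and 7.48%, 7.74% and 8.88% after knockdown, against 12.9%, 10.2% and 9.05% in control. Knockdown 3 and control 3 were close to each other. The means were 7.33% ± 0.987 in the 6 perturbed libraries and 10.7% ± 1.96 in the 3 controls (SD), a difference of -3.38 percentage points. The exact two-sided permutation p was 0.0238, the smallest that 6 against 3 libraries can give and the one that groups without overlap must give. With any 1 perturbed library left out p was 0.0357 and with any 1 control left out 0.0714, each the smallest then possible. Differences ran from -4.21 to -2.30 points. These p-values are set by the same lack of overlap and are no separate support for it. In edgeR 12 of the 13 genes were called lower and 1 was not called, and the median log2 fold change was -0.65 after overexpression and -0.42 after knockdown. MT-CO2, a cytochrome oxidase subunit, had 11042, 9809 and 9495 FPKM after overexpression and 12257, 11514 and 14107 FPKM after knockdown, against 20343, 17296 and 17599.8 FPKM in control, and MT-CO3, another, had 4732, 4282 and 3829 FPKM after overexpression and 5393, 5275 and 5920.1 FPKM after knockdown, against 9700.3, 7626 and 7356 FPKM in control. Their pooled log2 fold changes were -0.67 ± 0.10 (adjusted p = 0.00119) and -0.73 ± 0.12 (adjusted p = 0.00154). By CPM, 7 of the 13 lay below control in all perturbed libraries, and 4 did when libraries were scaled by TMM factors. Overexpression and knockdown were called different for 1 of the 13. Without the 4 libraries with hepatocyte transcripts 3 of the 13 were called lower, and the adjusted p was 0.0673 for MT-CO2 and 0.0462 for MT-CO3.

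Nuclear genes of the tricarboxylic acid cycle were lower in part, whereas few genes of the respiratory chain lay on 1 side of control. Of 23 genes of the tricarboxylic acid cycle, 6 lay below control (IDH2, SDHA, OGDH, SUCLA2, DLAT and SUCLG2) and none above, with 10 called lower and 2 higher. IDH2, the NADP-dependent isocitrate dehydrogenase, had 19.9, 16.9 and 17.6 FPKM after overexpression and 41.3, 39.3 and 40.8 FPKM after knockdown, against 51.4, 51.8 and 56.1 FPKM in control, and SDHA, the flavoprotein of complex II, had 15.5, 14.1 and 17.1 FPKM after overexpression and 17.4, 15.7 and 18.03 FPKM after knockdown, against 22.8, 23.1 and 23.6 FPKM in control. IDH2 was lower after overexpression than after knockdown by -1.06 ± 0.085 on the log2 scale (adjusted p = 2.38e-05), whereas SDHA was at about the same level in both (-0.042 ± 0.094, 95% interval -0.26 to 0.17). Leaving out the 4 libraries with hepatocyte transcripts left 1 gene of the cycle called lower, with an adjusted p of 0.0388 for IDH2 and 0.0862 for SDHA. SUCLG2, a subunit of succinyl-CoA ligase, was lower after knockdown (-0.59) than after overexpression (-0.23). Of 29 nuclear genes of the respiratory chain, 2 lay below control (SDHA and UQCRC2) and NDUFA9 above, with 8 called lower and 1 higher. Fewer thus lay below or above control than over all tested genes (10.2% and 9.88%). Of all tested genes, 19.2% were called lower and 20.0% higher. The median log2 fold change of the 29 genes was -0.34 after overexpression and 0.040 after knockdown. All of this list's edgeR calls were lost once the 4 libraries with hepatocyte transcripts were left out (adjusted p = 0.191 for NDUFA9 and 0.234 for UQCRC2). The call for UQCRC2, a subunit of complex III (-0.20, adjusted p = 0.0356), was lost without control 2 (0.0638) or control 3 (0.105), knockdown 1 (0.0759) or 2 (0.0629) and overexpression 2 (0.0645) or 3 (0.0733).

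In the pooled test, fatty acid synthesis genes were lower almost throughout, with the larger shift after overexpression. Of 11 tested, 5 lay below control in all perturbed libraries (SREBF1, SCD, FADS2, FASN and ELOVL6) and none above, and 10 were called lower and 1 was not called. The median log2 fold change was -0.70 after overexpression and -0.20 after knockdown, and overexpression was called below knockdown for 9 of the 11. SCD, the desaturase that makes oleate, had 76.4, 78.5 and 82.3 FPKM after overexpression and 267, 263 and 278 FPKM after knockdown, against 393, 416 and 404 FPKM in control, and SREBF1, the transcription factor that drives these genes, had 4.79, 4.38 and 5.08 FPKM after overexpression and 16.9, 18.5 and 16.2 FPKM after knockdown, against 24.7, 22.8 and 24.03 FPKM in control. FADS2, a desaturase of polyunsaturated fatty acids, had 4.99, 4.72 and 4.61 FPKM after overexpression and 13.8, 10.9 and 13.7 FPKM after knockdown, against 21.8, 19.01 and 20.5 FPKM in control. For all 3, overexpression was far lower and knockdown moderately lower than control, with log2 fold changes after knockdown of -0.60, -0.49 and -0.69. Overexpression was below knockdown by -1.67 ± 0.064 in SCD and -1.76 ± 0.078 in SREBF1 (adjusted p = 6.56e-07 and 1.52e-06). ELOVL6, an elongase, changed about equally (-0.80 and -0.67). SREBF1 overlaps RAI1 and hosts MIR33B, and FADS2 overlaps FADS1 and FEN1. Of 22 cholesterol genes tested, only MVD lay below and only HMGCS1 above control in all perturbed libraries. Over all tested genes these shares were 10.2% and 9.88%. The pooled test called 9 of the 22 lower and 2 higher, against 19.2% and 20.0% of all tested genes. Their median log2 fold change was -0.70 after overexpression and 0.037 after knockdown. MVD, a decarboxylase of the mevalonate pathway, had 6.24, 5.69 and 5.65 FPKM after overexpression and 7.09, 7.19 and 6.903 FPKM after knockdown, against 10.8, 10.3 and 12.3 FPKM in control, with a pooled log2 fold change of -0.76 ± 0.074 (adjusted p = 0.000131). Once the 4 libraries with hepatocyte transcripts were left out, 3 fatty acid and 2 cholesterol genes were called lower.

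DNA replication genes were lower in part. Of 27 tested, 7 lay below control (POLD1, GINS1, GINS2, LIG1, PCNA, RRM1 and RRM2) and none above, with 10 called lower and 17 not called. The median log2 fold change was -0.30 after overexpression and -0.086 after knockdown. RRM2, the regulated subunit of ribonucleotide reductase, had 15.2, 15.9 and 16.2 FPKM after overexpression and 18.7, 16.7 and 20.02 FPKM after knockdown, against 32.1, 33.5 and 27.6 FPKM in control, and its pooled log2 fold change was -0.83 ± 0.091 (adjusted p = 0.000241). GINS1, part of the replicative helicase, had 7.86, 8.43 and 8.302 FPKM after overexpression and 4.24, 4.68 and 4.35 FPKM after knockdown, against 11.01, 11.8 and 12.3 FPKM in control, and LIG1, the replicative ligase, had 6.81, 6.13 and 6.303 FPKM after overexpression and 10.8, 11.4 and 10.7 FPKM after knockdown, against 12.9, 13.4 and 13.2 FPKM in control. GINS1 was lower after knockdown, by 0.99 in overexpression minus knockdown (adjusted p = 1.78e-05), and LIG1 lower after overexpression (-0.68, adjusted p = 6.40e-05). Mitosis genes, to which NUSAP1 belongs by function, were mostly not called. Of 30 tested, 3 lay below control (CDK1, KIF23 and MAD2L1) and TPX2 above, with 4 called lower and 26 not called. Among all tested genes 10.2% lay below and 9.88% above, and 19.2% were called lower. CDK1, the mitotic kinase, had 9.91, 13.04 and 11.5 FPKM after overexpression and 14.6, 14.5 and 10.6 FPKM after knockdown, against 14.99, 18.4 and 18.01 FPKM in control, with a pooled log2 fold change of -0.44 ± 0.12 (adjusted p = 0.0179). That call was lost without control 2 (0.0662) or 3 (0.0557). The call for KIF23 was lost without control 2 (0.0810), and the call for MAD2L1 without control 1, 2 or 3 (0.0559, 0.0793 and 0.0822). With the 4 libraries with hepatocyte transcripts left out, the adjusted p was 0.05802 for RRM2, 0.0513 for GINS1, 0.0558 for LIG1, 0.544 for CDK1, 0.393 for KIF23 and 0.47001 for MAD2L1.

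Some genes below control were lowest after knockdown. OAT, ornithine aminotransferase, had 23.2, 25.3 and 27.5 FPKM after overexpression and 8.64, 9.77 and 10.1 FPKM after knockdown, against 32.5, 35.8 and 34.7 FPKM in control. GLO1, which detoxifies methylglyoxal, had 76.8, 76.1 and 78.9 FPKM after overexpression and 29.5, 28.5 and 27.5 FPKM after knockdown, against 80.6, 83.6 and 85.9 FPKM in control. The overexpression libraries were only just under control in GLO1, whereas every knockdown library was far below it. Log2 fold changes were -0.36 after overexpression and -1.86 after knockdown for OAT, and -0.029 (not called, adjusted p = 0.698) and -1.56 for GLO1. Overexpression exceeded knockdown by 1.504 ± 0.096 and 1.53 ± 0.058 (adjusted p = 8.86e-06 and 6.18e-07). Of 17 genes for serine, proline, ornithine and one-carbon metabolism, 5 lay below control (ALDH18A1, OAT, PHGDH, PSAT1 and SHMT1) and 2 above (ODC1 and GOT1), with 7 called lower and 2 higher. The shares over all tested genes were 10.2% below, 9.88% above, 19.2% called lower and 20.0% called higher. ALDH18A1, the first enzyme of proline synthesis, was like OAT (-0.21 and -1.06), while PHGDH, the first enzyme of serine synthesis, was lower after overexpression (-1.13 and -0.25). SHMT1, a folate enzyme, had 2.85, 2.42 and 2.45 FPKM after overexpression and 4.91, 5.24 and 5.31 FPKM after knockdown, against 6.21, 6.01 and 6.64 FPKM in control. Of 15 glyoxalase and NRF2 genes, 4 lay below control by CPM (GLO1, HAGH and AKR1B1 among them), but 1 did with TMM scaling, and 6 were called lower and 3 higher. AKR1B1, aldose reductase, had 9.39, 7.51 and 8.11 FPKM after overexpression and 9.94, 9.89 and 10.3 FPKM after knockdown, against 13.7, 15.3 and 17.2 FPKM in control, with a pooled log2 fold change of -0.71 ± 0.094 (adjusted p = 0.000593). Without the 4 libraries with hepatocyte transcripts the adjusted p was 0.0609 for AKR1B1 and 0.0518 for SHMT1.

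Genes of invasion and cell identity moved in both directions. ITGA5, a fibronectin receptor subunit, had 17.7, 18.5 and 18.2 FPKM after overexpression and 16.8, 16.4 and 15.6 FPKM after knockdown, against 8.82, 8.96 and 9.595 FPKM in control. MMP2, a gelatinase, had 13.1, 10.97 and 11.5 FPKM after overexpression and 12.4, 11.7 and 13.3 FPKM after knockdown, against 20.3, 21.7 and 21.97 FPKM in control, and MMP14, the protease that activates it, had 5.51, 5.59 and 5.07 FPKM after overexpression and 8.38, 6.28 and 8.48 FPKM after knockdown, against 11.7, 12.5 and 12.4 FPKM in control. ITGA5 was above control, and MMP2, MMP14 and TGFBI below, in all perturbed libraries. They belong to a list of 12 mesenchymal and invasion genes of which 4 were called higher and 4 lower. ITGA5 had a pooled log2 fold change of 0.94 ± 0.056 (adjusted p = 1.77e-05) and MMP2 of -0.77 ± 0.081 (adjusted p = 0.000191). Overexpression and knockdown of MMP2 differed by 0.016 ± 0.096, with a 95% interval of -0.20 to 0.24. The adjusted p of MMP2 was 0.0599 without the 4 libraries with hepatocyte transcripts. Among 11 epithelial and keratin genes, CD24 and CLDN7 lay below control and none above, with 3 called lower and 3 higher. CLDN7, a tight-junction claudin, had 3.68, 3.37 and 4.56 FPKM after overexpression and 7.03, 7.73 and 8.04 FPKM after knockdown, against 8.93, 9.67 and 8.2004 FPKM in control, with knockdown just under control. COL1A1, a collagen chain, was also below control with 8.78, 8.68 and 8.2005 FPKM after overexpression and 11.4, 11.7 and 10.8 FPKM after knockdown, against 17.4, 18.5 and 17.2 FPKM in control. COL1A1 and CD68 were fixed as markers of other cell types. CD68, a macrophage marker that other cells also express, had 49.1, 28.8 and 32.5 FPKM after overexpression and 17.1, 19.5 and 18.8 FPKM after knockdown, against 12.5, 10.7 and 12.5 FPKM in control, above control in all perturbed libraries, and its locus overlaps a neighbour on each strand. PTPRC and CD3E were not in the tested set. The part of other cells in these results was not tested.

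Interferon, NF-kappaB and histone genes passed the pooled test in number, with knockdown medians near control. Of 25 interferon response genes, 16 were called higher and 1 lower in the pooled test, yet 2 lay above control in all perturbed libraries (ISG15 and ISG20) and 1 below (IFITM1). ISG20 passed the FPKM floor only through overexpression, with 1.06, 1.04 and 1.02 FPKM there and 0.359, 0.335 and 0.356 FPKM after knockdown, against 0.226, 0.319 and 0.226 FPKM in control. Their median log2 fold change was 2.09 after overexpression and -0.069 after knockdown. ISG15, a ubiquitin-like modifier, had 203, 167 and 203 FPKM after overexpression and 39.5, 31.5 and 37.3 FPKM after knockdown, against 23.4, 23.1 and 31.4 FPKM in control. Of 11 NF-kappaB and cytokine genes, 10 were called higher and 1 was not called, and 2 lay above control (NFKB2 and ICAM1), with median log2 fold changes of 2.94 after overexpression and -0.022 after knockdown. NFKB2, an NF-kappaB subunit, had 33.6, 32.1 and 33.6 FPKM after overexpression and 8.22, 8.39 and 8.202 FPKM after knockdown, against 6.08, 6.96 and 7.15 FPKM in control. Of 12 replication-dependent histone genes, 10 were called higher and 2 were not called, and 3 lay above control (H4C8, H2BC5 and H2BC12), with median log2 fold changes of 2.604 after overexpression and 0.12 after knockdown. H2BC12 had 170.4, 144 and 175 FPKM after overexpression and 103, 89.6 and 116 FPKM after knockdown, against 74.7, 78.6 and 84.4 FPKM in control. Histone genes are near-identical in coding sequence and lack poly(A) tails in their main form, so poly(A)-selected counts of them are uncertain. Once the 4 libraries with hepatocyte transcripts were left out, 8 interferon, 4 NF-kappaB and 2 histone genes were called higher. The call for IFITM1 was lost without control 1 (adjusted p = 0.0663).

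**Figure D4:**
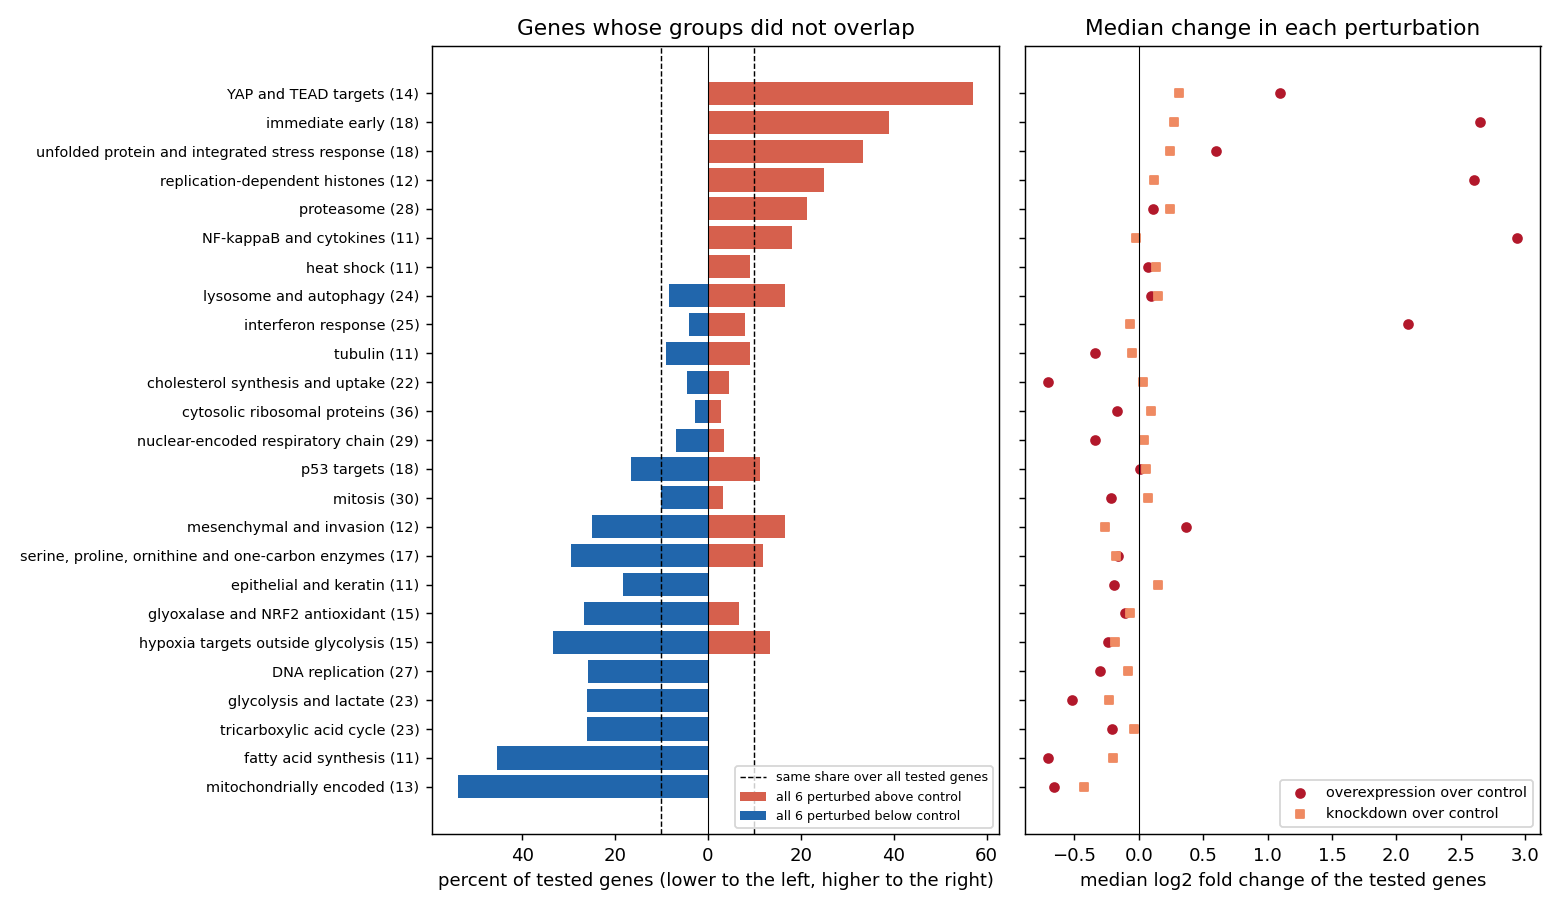
For 25 gene lists, with the number of tested genes in brackets, the left panel gives the percent of genes with all perturbed libraries above (red) or below (blue) control, and dashed lines mark these shares over all tested genes (9.88% and 10.2%). The right panel gives each list's median log2 fold change after overexpression (circles) and knockdown (squares), where interferon, NF-kappaB and histone lists have knockdown medians near 0.

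Among called genes on 1 side of control at a mean FPKM of at least 5, and with overexpression below knockdown, the 5 with the lowest p for that difference were SCD, SREBF1, DEPTOR, OLFML2A and COL6A1, all of them below control. DEPTOR, an inhibitor of mTOR, had 1.53, 1.47 and 1.66 FPKM after overexpression and 9.75, 9.601 and 9.31 FPKM after knockdown, against 10.4, 12.1 and 11.1 FPKM in control, and OLFML2A, a secreted olfactomedin-like protein, had 3.96, 3.54 and 3.93 FPKM after overexpression and 15.1, 15.02 and 14.3 FPKM after knockdown, against 20.8, 20.6 and 19.8 FPKM in control. COL6A1, a chain of collagen VI, had 3.48, 3.23 and 3.52 FPKM after overexpression and 9.13, 9.23 and 9.03 FPKM after knockdown, against 11.01, 11.4 and 11.9 FPKM in control. In all 3 overexpression was far below the other groups, with overexpression minus knockdown of -2.52 ± 0.090, -1.86 ± 0.068 and -1.32 ± 0.067 on the log2 scale (adjusted p = 5.42e-07, 5.59e-07 and 2.75e-06). After knockdown the log2 fold changes against control were smaller, at -0.24 for DEPTOR (not called), -0.48 for OLFML2A and -0.34 for COL6A1.

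Targets of p53 lay on both sides of control. Of 18 tested, 2 lay above (SESN2 and AEN) and 3 below (FDXR, DDB2 and XPC), with 4 called in each direction, while 20.0% of all tested genes lay on 1 side. AEN, a nuclease induced by p53, had 32.2, 31.4 and 33.1 FPKM after overexpression and 8.24, 7.38 and 7.79 FPKM after knockdown, against 5.24, 6.03 and 5.81 FPKM in control, and FDXR, ferredoxin reductase, had 3.72, 3.14 and 3.77 FPKM after overexpression and 7.47, 7.1003 and 7.53 FPKM after knockdown, against 11.1, 11.2 and 12.02 FPKM in control. Of 36 cytosolic ribosomal protein genes, RPL4 lay above and RPS24 below control, 1 was called higher and 3 lower, and the call for RPL4 was lost without control 3 (adjusted p = 0.0762). Ribosomal protein genes have many processed copies, so their counts are uncertain.

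Members above and below control differed in length and base composition. Using the longest basic transcript of GENCODE 29, matched by identifier for 1235 genes above control, 1271 below and 9987 other tested genes, the median transcript length was 3397 bases above control, 2851 below and 2942 in the others. The median exon number was 10 above control, 7 below and 8 in the others, and the median GC content was 49.5% above control, 54.5% below and 48.4% in the others. In 5 equal groups by length, from short to long, the share of genes above control was 6.20%, 8.97%, 11.4%, 11.5% and 11.3%, and the share below control was 8.16%, 12.4%, 12.1%, 10.8% and 7.45%. The share above control rose over the shorter groups and then levelled off, and the share below control was highest in the middle groups. On the mitochondrial chromosome 11 of 37 tested genes lay below control and 2 above. These are descriptions of genes that share libraries, and the part of length or base composition in the counts was not tested.

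Genes nearest the line between counted and uncounted had almost equal values on both sides. KLHDC10, just above control, had 42.0389 CPM in its lowest perturbed library, against 42.0386 CPM in its highest control. SEC23B, just short of it, had 102.576 CPM in its lowest perturbed library, against 102.582 CPM in its highest control. POLR2G, just below control, had 60.346 CPM in its highest perturbed library, against 60.3478 CPM in its lowest control. GSTK1 missed by a like margin, with 55.8882 CPM in its highest perturbed library, against 55.8824 CPM in its lowest control.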

How the data were processed

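RNA sequencing of 9 PANC1 libraries was used. Per the labels' protocols, messenger RNA was taken by oligo(dT) beads and the second strand carried dUTP. The authors deposited a read count per gene, a whole number with no normalization, and an FPKM value that takes account of transcript length and sequencing depth. Tools listed in the submitters' processing notes are StringTie 1.3.4d, HISAT2 2.0.4 and cutadapt 1.9. For the genome build, and for strand in counting, the sources used here give nothing. Of the table's 60612 genes, 58394 matched GENCODE 29 by identifier and 99.9% of those overlapped the deposited position.

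The sides of control were read from CPM over library totals. Counts were fitted with edgeR 4.0.16 (R 4.3.3), TMM factors and quasi-likelihood tests, with 3 groups, 6 residual degrees of freedom and a common biological coefficient of variation of 0.226. Contrasts were the mean of the overexpression and knockdown means minus control, and overexpression minus knockdown. P-values were adjusted by Benjamini-Hochberg over 12545 genes, with a threshold of 0.05. Values of each perturbation against control share the control libraries, so no overlap between them is given as a result. Standard errors are the change over the square root of F and approximate. The method was checked on simulated data.

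The genes, lists and rules were chosen with earlier results of these data known. Named were NUSAP1, LDHA, HIF1A and MYC, and, among genes on 1 side of control and called, the 12 in each direction with the largest smaller change at a mean FPKM of at least 5. Also named were up to 3 genes per list with the smallest p, the 5 each way with the smallest p for overexpression against knockdown, and the 2 nearest genes inside and outside the rule in each direction. Other list genes are given for their lists and were chosen with their values seen. RIGI had no row under that symbol, and some genes that the rules or lists take in are not reported here. Of the lists, 1 of 7 tested hepatocyte genes was called lower (ALB) and none lay on 1 side of control.

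Replicate numbers were checked for pairing on deviations from group means. Same-numbered knockdown and control libraries correlated at 0.139, 0.132 and 0.117, overexpression and control at -0.093, 0.00023 and 0.0017, and overexpression and knockdown at -0.052, 0.251 and 0.069, so numbers were not taken to pair all 3 groups. No 2 libraries of the same group agreed within sampling noise. Alternatives were DESeq2 1.42.0, limma 3.58.1 on log2(FPKM + 1) and log2(FPKM + 0.1), DESeq2 size factors or library totals, no filter or an FPKM of 5, the replicate block, a 2-group model and leaving out each library. Leaving out the 4 libraries with hepatocyte transcripts, or NUSAP1 and the mitochondrial genes, was added after seeing the data.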

Additional observations from a re-analysis of the deposited data

Results flagged for a closer look

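NUSAP1 and HIF1A differed between the perturbations against the same controls. Overexpression minus knockdown was 10.16 on the log2 scale for NUSAP1 (edgeR adjusted p = 1.09e-08), with overexpression above and knockdown below control in every library, as the labels set it up. For HIF1A it was 0.78 (adjusted p = 0.00258), with mean FPKM of 21.9 after overexpression and 13.7 after knockdown, against 19.9 in control.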

How the results depend on the processing

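With the 6 perturbed libraries as 1 group, 392 genes were called, 170 higher and 222 lower, and 65 of 106 named genes lost their call. Without the 4 libraries with hepatocyte transcripts, where the lone control and overexpression libraries are assumed to vary like the knockdown ones (2 residual degrees of freedom), 394 were called, 185 higher and 209 lower, and 3539 for overexpression against knockdown. There, 5291 genes did not overlap, 2967 above and 2324 below control, since fewer libraries must be separated, and 53 named genes lost their call. An FPKM of at least 5 left fewer genes, with 1581 called lower and 1571 not overlapping, 708 of them below control. With the replicate block 5396 genes were called (2799 higher and 2597 lower) and 6643 for overexpression against knockdown, and of the named genes it changed only the call of CNDP2 (adjusted p = 0.04298 with the block and 0.05801 without). Leaving out each library in turn gave 3831 to 5012 pooled calls (1870 to 2464 higher, 1946 to 2548 lower), 5354 to 6158 for overexpression against knockdown, and 2603 to 3271 genes that did not overlap (1278 to 1691 above, 1325 to 1696 below). The log2(FPKM + 1) difference ran from -1.12 to -1.03 for LDHA, from -0.31 to -0.074 for HIF1A and from -0.63 to 0.20 for MYC, and the mitochondrial share difference from -4.21 to -2.30 points. Without control replicates the smallest possible exact p was 0.0714. DESeq2, limma, the scalings and no filter kept each count within 1.5 times, though no filter ended the calls of UQCRC2 (adjusted p = 0.0920), MAD2L1 (0.05497) and RPL4 (0.0521). Single libraries ended those of KLHDC10 (0.0612 and 0.0553 without control 1 and 3), LAMTOR1 (0.0546 without control 1) and POLR2G (0.0605 without control 3). MYC, which was not called under any alternative, was 0.13 in the edgeR fit but -0.58 with the replicate block, -0.29 and -0.42 in limma with an added 1 and 0.1, and -0.11 without knockdown 1 or overexpression 1. No other named gene changed sign. Depth limits genes such as ANKRD1 and DUSP8, which had under 1 FPKM in every control.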
